A study of Mus musculus with 2 samples.

Results

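The 10 genes described here encode the core of transforming growth factor beta (TGF-beta) signalling in obese epididymal fat. They are the ligand genes Tgfb1, Tgfb2 and Tgfb3, the receptor genes Tgfbr1, Tgfbr2 and Tgfbr3, the latency genes Ltbp1, Ltbp3 and Ltbp4, and the target gene Ccn2. They were chosen by name, with earlier results of these data known, and all 10 were found among the 30084 genes of the transcript table. Cells were the stromal vascular fraction, the non-adipocyte cells that Liberase frees from minced fat pads. The donors were male mice, Mincle KO or WT, on a C57BL/6J background. Both genotypes received high-fat diet, and its length was 15 weeks. Mincle is a C-type lectin receptor of macrophages encoded by Clec4e. Suspensions were stained with hashtag antibodies, pooled, loaded as 20000 cells on BD Rhapsody and amplified by TAS-Seq, a whole-transcriptome chemistry, which gave 1 library of transcripts and 1 of hashtags. The labels give both genotypes for each library and tie none of the hashtags to either, so Mincle KO and WT cells were not compared. The sources used here do not give the number of mice per hashtag. The pool is therefore 1 sample, no test was run, and spread is given as the range over its 4 hashtags.

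The TGF-beta ligands are secreted as latent complexes. Each ligand stays wrapped in its own propeptide, which is linked to a latent TGF-beta binding protein (the products of Ltbp1, Ltbp3 and Ltbp4) that ties the complex to the matrix, and integrins, proteases or thrombospondin release the active ligand. The active ligand binds the type II receptor encoded by Tgfbr2, which phosphorylates the type I receptor encoded by Tgfbr1, and Smad proteins carry the signal to the nucleus. Betaglycan, the product of Tgfbr3, presents ligand and is best known for TGF-beta2. In fat the pathway is known for driving matrix production by fibroblasts and for holding back adipogenesis. Ccn2, also called connective tissue growth factor, is a classical target of TGF-beta and of YAP and TEAD factors in fibroblasts.

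The transcript table totals 651658017 counts over 15741 cells, a median of 34182 a cell, and all of its barcodes occur in the hashtag table. Leaving out the 367 cells that the authors named doublets and 182 that failed the filters left 15192 cells. Clusters were named from marker genes, with the 10 genes kept out of the clustering. They gave 8463 macrophage-like, 187 monocyte-like, 287 dendritic-cell-like, 403 T-cell-like, 249 mural-like, 1132 endothelial-like and 3284 fibroblast-like cells. Pdgfra, Col1a1, Dcn and Lum marked every fibroblast cluster, Adgre1, C1qb and Csf1r every macrophage cluster, Cdh5 and Pecam1 both endothelial clusters, and Rgs5, Acta2 and Myh11 the mural cluster. The mural cluster also had 3 of 6 fibroblast markers, and an endothelial cluster of 250 cells had 4 of 7 mural markers. The T-cell cluster had 3 macrophage, 5 NK-cell and 3 innate lymphoid markers. Finer clustering (Leiden resolution 2.0) gave separate clusters of 241 T-cell-like and 163 NK-cell-like cells, so the T-cell-like levels below are not of T cells alone. The monocyte cluster had 7 macrophage markers beside 6 monocyte markers, and a macrophage cluster of 770 cells had 3 monocyte markers. Another 842 cells lay in clusters with markers of 2 compartments, as did 188 cells in sub-clusters of the fibroblasts and 126 in sub-clusters of the macrophages, and all were set aside. Median depth differed between lineages, from 10488 counts per T-cell-like cell to 40269 per macrophage-like cell. Clec4e lay at 7.02 CPM in macrophage-like cells and between 0.543 and 17.3 CPM over hashtags, and no cells were grouped by it. Hashtags were taken from the cell names, and the tag counts behind them were thin in stroma, with a median of 34 per fibroblast-like, 77 per mural-like and 1372 per macrophage-like cell. At least 10 tag counts, 75% of them from 1 hashtag, were found in 585 of 3284 fibroblast-like, 115 of 249 mural-like and 7982 of 8463 macrophage-like cells, all of them for the named hashtag. The named hashtag had the most tag counts in 82.9%, 92.8% and 99.2% of these classes, so hashtag ranges of stromal cells rest on weaker assignments. Levels are counts scaled to the total count of the class (CPM), and intervals are exact 95% intervals that cover counting error only.

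Tgfb1 lies on the plus strand of chr7:25687002-25705077 and Tgfb2 on the minus strand of chr1:186622792-186705989 (GRCm38, GENCODE vM21), and all 10 genes are annotated as protein-coding. The other ligand, Tgfb3, lies at chr12:86056745-86079041. The receptors are Tgfbr1 at chr4:47353222-47414931, Tgfbr2 at chr9:116084293-116175360 and Tgfbr3 at chr5:107106570-107289629. The latency genes are Ltbp1 at chr17:75005568-75392512, Ltbp3 at chr19:5740904-5758532 and Ltbp4 at chr7:27305136-27337692, and Ccn2 lies at chr10:24595442-24598683. Tgfb3 overlaps the protein-coding gene Ttll5, while Tgfb2 and Ccn2 overlap the noncoding genes Gm29491 and Gm15270, all on the opposite strand. Tgfbr3 and Ltbp1 overlap unnamed models and pseudogenes (Gm43422, Gm43423, Gm42900 and Gm8145, and Gm6276). The sources used here do not say whether counting used strand, so the reads of such pairs cannot be told apart. Ttll5 ranged from 3.50 to 8.62 CPM over the 7 lineages.

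Among the ligands, Tgfb1 and Tgfb2 had the most unlike distributions, so the 250 bases before their starts are shown, 5′ to 3′ on the strand of the gene (RefSeq, GRCm38.p6). The Tgfb1 window is chr7:25686752-25687001 (plus strand) and the Tgfb2 window is chr1:186705990-186706239 (minus strand). Of the 10 genes, 7 had an entry in this table and Tgfb3, Tgfbr3 and Ccn2 are named only. Capitals mark matches, on either strand, to CAGAC (the SMAD box), TGANTCA (AP-1), CATTCC (TEAD), GGGCGG (the GC box of Sp1) and GAGGAA (the core that PU.1 binds), and none of the marked matches overlap.
Tgfb1: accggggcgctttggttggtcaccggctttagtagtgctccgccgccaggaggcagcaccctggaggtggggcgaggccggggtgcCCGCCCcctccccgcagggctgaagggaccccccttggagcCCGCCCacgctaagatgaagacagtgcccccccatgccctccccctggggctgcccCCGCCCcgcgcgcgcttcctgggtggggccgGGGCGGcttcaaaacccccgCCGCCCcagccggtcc
Tgfb2: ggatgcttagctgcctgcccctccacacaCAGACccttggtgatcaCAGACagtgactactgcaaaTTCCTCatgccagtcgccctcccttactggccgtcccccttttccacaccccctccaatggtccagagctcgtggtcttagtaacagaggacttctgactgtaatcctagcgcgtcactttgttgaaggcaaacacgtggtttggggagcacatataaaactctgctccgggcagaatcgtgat
The Tgfb1 window is 75.2% G and C and holds 5 matches to GGGCGG and none to the other letters. The Tgfb2 window is 53.6% G and C and holds 2 matches to CAGAC, 1 match to GAGGAA and none to the rest. Of 27025 windows of the same length, 1 per gene, 32.9% held GGGCGG, 42.1% CAGAC, 23.1% GAGGAA, 12.6% CATTCC and 6.87% TGANTCA. A match is a description of the letters and not a site of binding.

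Among the ligands, Tgfb1 was a transcript of immune and vascular cells, while Tgfb2 and Tgfb3 were transcripts of fibroblast-like and mural-like cells. Tgfb1, which encodes the isoform best known in fibrosis, had 290.3, 226, 264 and 268 CPM in monocyte-like cells with hashtags A0309, A0310, A0311 and A0312, the order of hashtags used throughout. Macrophage-like cells had 219.9, 220.3, 225 and 228 CPM. Fibroblast-like cells had 33.1, 33.6, 28.2 and 30.4 CPM. The hashtag ranges of monocyte-like and macrophage-like cells overlapped, and fibroblast-like cells lay below every other lineage in every hashtag. T-cell-like cells stood between at 165 CPM, and endothelial-like (136 CPM), dendritic-cell-like (133 CPM) and mural-like cells (129 CPM) had overlapping ranges. Macrophage-like cells, the most numerous class, held 89.5% of the Tgfb1 counts in named cells. Over all genes they held 410804770 counts, against 126059475 in fibroblast-like cells, so such shares follow cell number and depth as well as level.

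Tgfb2 encodes the isoform that needs betaglycan for strong receptor binding. It had 28.4, 44.8, 38.0 and 27.1 CPM in mural-like cells and 89.3, 79.7, 73.4 and 92.1 CPM in fibroblast-like cells, and these ranges did not overlap. Endothelial-like cells had 5.02 CPM of Tgfb2, and no other of the 7 lineages passed 1.10 CPM. Tgfb3 had 62.5, 47.3, 41.5 and 23.4 CPM in mural-like cells and 35.5, 39.4, 39.3 and 44.7 CPM in fibroblast-like cells. These ranges overlapped, so their order is not settled by the spread, and the remaining lineages had at most 4.97 CPM of Tgfb3. After each cell was thinned to 10000 counts, 0.578% of 8130 macrophage-like cells had a Tgfb2 count, against 30.9% of 3238 fibroblast-like cells. Without thinning the shares were 1.80% (95% exact binomial interval 1.52 to 2.10) and 45.8% (44.1 to 47.6), at median depths of 40269 and 35863.5 counts. The macrophage-like level of Tgfb2 was 0.674 CPM, against 83.3 CPM in fibroblast-like cells. The fibroblast markers Pdgfra, Col1a1 and Col1a2 stood in macrophage-like cells at 0.582% of their fibroblast-like level, and the part of RNA from other cells in the Tgfb2 counts was not tested.

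**Figure D1:**
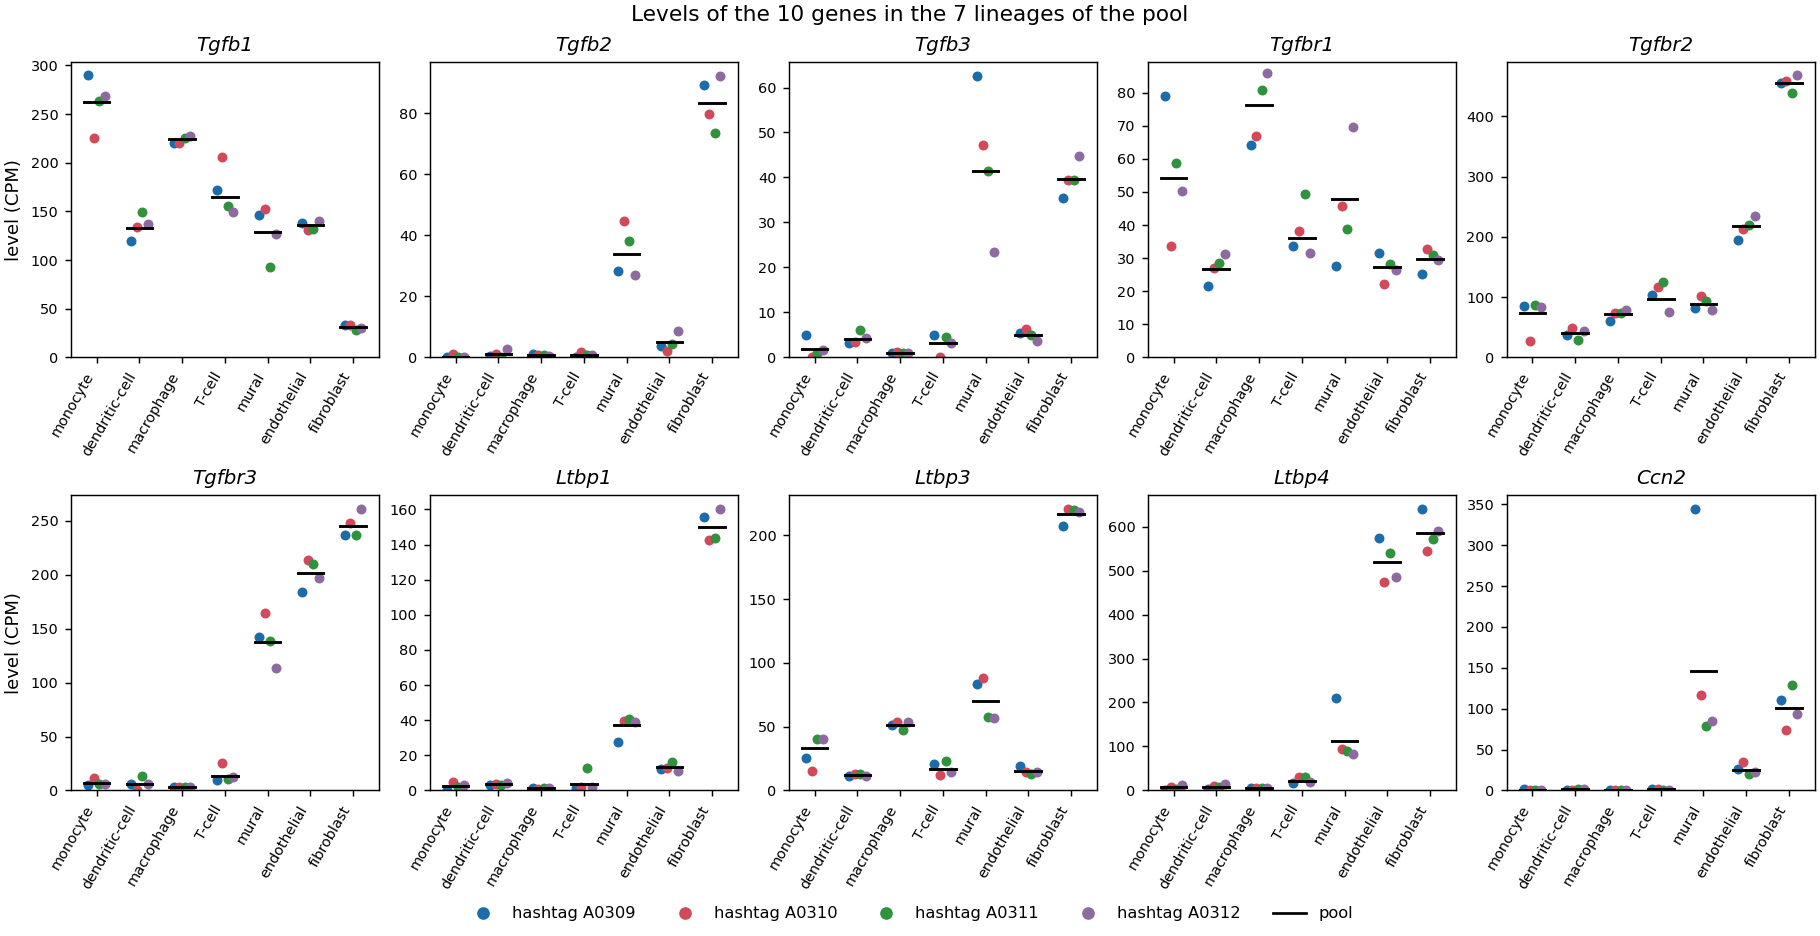
Levels of each gene (CPM, linear axis from 0, own scale per gene) in 7 lineages, with a point per hashtag and a black bar for the pool. Tgfb1 is at its lowest in fibroblast-like cells (31.5 CPM), where Tgfb2 (83.3 CPM), Tgfbr2 (455 CPM), Ltbp1 (150.0 CPM) and Ltbp3 (217 CPM) are at their highest.

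The receptor genes were spread differently from one another. Tgfbr2, the ligand-binding type II receptor, had 195, 212, 219 and 235 CPM in endothelial-like cells and 455, 459, 439 and 468 CPM in fibroblast-like cells. These ranges lay apart, and endothelial-like cells lay above T-cell-like cells (97.1 CPM) in every hashtag. T-cell-like cells were followed by mural-like cells at 87.8 CPM, monocyte-like cells at 74.2 CPM and macrophage-like cells at 72.2 CPM, with neighbours that overlapped, and dendritic-cell-like cells were lowest at 40.1 CPM. Fibroblast-like cells held 61.3% of the Tgfbr2 counts in named cells and macrophage-like cells 31.7%, shares that follow cell number and depth as well as level. Tgfbr3 marked the stroma, with 137 CPM in mural-like, 201 CPM in endothelial-like and 245 CPM in fibroblast-like cells, each range apart from the next. All immune lineages had at most 13.8 CPM of Tgfbr3.

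Tgfbr1, the type I receptor that activates Smad2 and Smad3, had 64.3, 66.9, 80.7 and 86.1 CPM in macrophage-like cells. Fibroblast-like cells had 25.1, 32.7, 30.8 and 29.6 CPM. Its order was the least settled of the 10 genes, because every pair of neighbours among the 7 lineages overlapped, although macrophage-like and fibroblast-like cells lay apart. Monocyte-like cells had 54.3 CPM, mural-like cells 48.0 CPM, T-cell-like cells 36.1 CPM, endothelial-like cells 27.3 CPM and dendritic-cell-like cells 26.7 CPM. In thinned cells both receptor transcripts were found together in 17.7% of macrophage-like cells, where independent detection would give 16.9%. In fibroblast-like cells these shares were 16.9% and 16.4%.

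Among the 7 lineages each latency gene had its highest pool level in fibroblast-like cells. Ltbp1 had 156, 142, 144 and 160.1 CPM in fibroblast-like cells. Mural-like cells followed at 37.0 CPM and endothelial-like cells at 13.4 CPM, and no immune lineage passed 3.72 CPM. Ltbp4, whose product also organises elastic fibres, had 573, 474, 539 and 485 CPM in endothelial-like cells and 639, 544, 572 and 589 CPM in fibroblast-like cells. These ranges overlapped, although fibroblast-like cells had the higher level within each of the 4 hashtags. With each cell scaled before averaging, endothelial-like cells were the higher, with a log2 ratio over fibroblast-like cells of 0.007. Ltbp3 had 51.3, 53.8, 47.3 and 54.0 CPM in macrophage-like cells and 207, 221, 219.6 and 219 CPM in fibroblast-like cells. Macrophage-like cells lay below mural-like cells (70.0 CPM) and above monocyte-like cells (33.0 CPM) in every hashtag. They held 42.7% of the Ltbp3 counts in named cells, a share that follows cell number and depth as well as level.

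A pair of small clusters outside the 7 lineages had high levels of some of these genes. The 14 lymphatic endothelial-like cells had 1847 CPM of Ltbp4 (interval 1680.1 to 2026), 757 CPM of Tgfbr2 (651 to 875) and 111 CPM of Tgfb2 (73.2 to 162). The 17 mesothelial-like cells, the lining of the fat pad, had 384 CPM of Ltbp3 (329.5 to 445) and no Ltbp1 count, which allows up to 8.00 CPM. No hashtag held 20 cells of either class, so their levels have no hashtag range.

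Ccn2 was a stromal transcript, and of the 10 genes it varied most over hashtags in mural-like and fibroblast-like cells. It had 344, 117, 78.6 and 85.5 CPM in mural-like cells and 26.8, 35.2, 19.6 and 22.9 CPM in endothelial-like cells. Fibroblast-like cells had 111, 73.4, 129 and 94.1 CPM. Mural-like and fibroblast-like cells overlapped, endothelial-like cells lay below both, and no immune lineage passed 1.38 CPM. Few cells carried most of the counts: the tenth of fibroblast-like cells with the most Ccn2 held 77.6% of them, against 32.0% for the same measure of Tgfbr2. In mural-like cells with hashtag A0309, 1 of 60 cells held 38.3% of the 363 counts, and taking out the counts of the 3 highest cells left 101 CPM. The exact intervals of Ccn2 (135 to 157 CPM in mural-like, 99.3 to 103 CPM in fibroblast-like cells) are therefore narrower than its spread.

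Ccn2 is also among the genes that respond quickly to mechanical stress, so a list of 10 immediate early and heat shock genes, which cell isolation can induce, was read beside it. Their summed level was 13895 CPM in mural-like cells, 9480.4 CPM in endothelial-like cells, 14433 CPM in fibroblast-like cells, while macrophage-like cells had 6772 CPM. Within fibroblast-like cells the sums were 13584, 15206, 13658 and 15287 CPM, and the hashtags with the lower sums, A0309 and A0311, had the higher Ccn2. Endothelial-like cells ran the other way: their sums were 8747, 12267, 8684 and 9007 CPM, and A0310 had both the highest sum and the highest Ccn2. In mural-like cells the sums were 13532, 15138, 13678 and 13377 CPM, with the highest sum in A0310 and the highest Ccn2 in A0309. The part of cell isolation in the Ccn2 level was not tested.

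**Figure D2:**
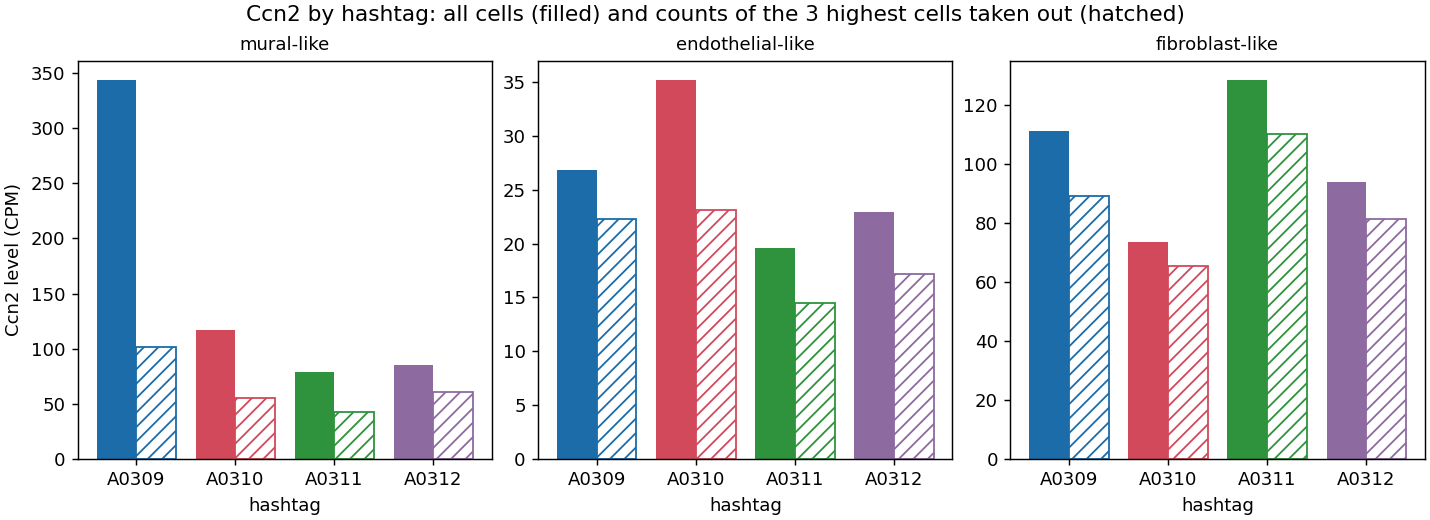
Ccn2 level (CPM, linear axis from 0, own scale per panel) by hashtag in mural-like, endothelial-like and fibroblast-like cells, from all cells (filled bars) and with the counts of the 3 highest cells taken out (hatched bars). In mural-like cells with hashtag A0309 the hatched bar stands at 101 CPM beside a filled bar of 344 CPM, while the filled bars of fibroblast-like cells lie between 73.4 and 129 CPM.

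The next comparisons asked which of the 10 genes separated the lineages. A gene counted as called when its log2 ratio of (CPM + 1) reached 1, or -1 on the lower side, in the pool and also in all hashtags that had 20 or more cells of each class. This scale understates the ratios of genes with low CPM. In macrophage-like over fibroblast-like cells all 10 genes were called, 2 higher and 8 lower, where the same rule called 33.2% of the 12088 genes at 5 CPM or more in either class (14.2% higher and 19.1% lower). Tgfb1 was higher by 2.79 (2.68 to 2.95 over hashtags) and Tgfbr1 by 1.33 (1.01 to 1.51). Ltbp4 was lower at -6.57, Ltbp1 at -6.06, Ccn2 at -5.88, Tgfbr3 at -5.85, Tgfb2 at -5.65, Tgfb3 at -4.33, Tgfbr2 at -2.64 and Ltbp3 at -2.05. The median of the 10 genes was -4.99, against -0.03 for all genes tested. The call of Tgfbr1 was lost with a pseudocount of 5 CPM, with a size rule of 1.5, with hashtags assigned by tag counts, with mixed sub-clusters kept and at Leiden resolution 0.5.

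Markers of other cell types were measured in every class. Adgre1, C1qb, Csf1r and Mrc1, macrophage markers whose low values are present in the table, summed to 76.2 CPM in fibroblast-like cells, 2.08% of the 3673 CPM in macrophage-like cells. The same sum was 474 CPM in endothelial-like, 921 CPM in mural-like and 1292 CPM in T-cell-like cells. When cells at 100 CPM or more of these markers were left out, Tgfb1 stood at 123 CPM in 602 endothelial-like cells, 113 CPM in 147 mural-like cells and 29.9 CPM in 2403 fibroblast-like cells. Ccn2 in mural-like cells was then 79.2 CPM, against 146 CPM in all of them. In the other direction, Pdgfra, Col1a1 and Col1a2 summed to 56.1 CPM in macrophage-like cells, 0.582% of the fibroblast-like level.

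In endothelial-like over fibroblast-like cells 6 of the 10 genes were called, 1 higher and 5 lower, against 23.7% of 12556 genes tested (13.9% higher and 9.88% lower). Tgfb1 was higher by 2.07 (1.93 to 2.19). Tgfb2 was lower at -3.81, Ltbp3 at -3.76, Ltbp1 at -3.39, Tgfb3 at -2.76 and Ccn2 at -1.96 (-2.65 to -1.04). All 3 ligands, the target and 2 of the latency genes were thus called, and none of the receptors was. Tgfbr2 was at -1.06 with a hashtag at -0.99, Tgfbr3 at -0.28, Ltbp4 at -0.17 and Tgfbr1 at -0.12. The median was -1.51 for the 10 genes and 0.30 for all genes. The call of Ccn2 was lost under 7 of the other settings, among them a size rule of 1.5, the removal of the 5% of cells with the most counts and the removal of cells with macrophage markers.

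In mural-like over fibroblast-like cells 5 of the 10 genes were called, 1 higher and 4 lower, against 15.3% of 12616 genes (9.41% higher and 5.84% lower). Tgfb1 was higher by 2.004, and Tgfbr2 (-2.36), Ltbp4 (-2.36), Ltbp1 (-1.99) and Ltbp3 (-1.62) were lower. Tgfb2 (-1.27), Tgfbr3 (-0.83), Tgfbr1 (0.68), Ccn2 (0.53) and Tgfb3 (0.06) were not called. The median of the 10 genes was -1.05, against 0.35 for all genes. Pdgfra, Col1a1 and Col1a2 summed to 1558 CPM in mural-like cells, 16.2% of the fibroblast-like level, and their part in the mural-like values was not tested. The call of Ltbp3 was lost with a size rule of 1.5 and with hashtags assigned by tag counts, and that of Ltbp4 when cells with macrophage markers were left out.

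The 2 vascular lineages also differed from each other. In mural-like over endothelial-like cells 7 genes were called, 5 higher and 2 lower, against 12.7% of 12709 genes (6.75% higher and 5.96% lower). Tgfb3 (2.83), Tgfb2 (2.54), Ccn2 (2.49), Ltbp3 (2.15) and Ltbp1 (1.41) were higher in mural-like cells, and Ltbp4 (-2.18) and Tgfbr2 (-1.30) were lower. Tgfb1 stood at -0.07, Tgfbr1 at 0.79 and Tgfbr3 at -0.55, all not called. The medians were 1.10 for the 10 genes and 0.06 for all. Pdgfra, Col1a1 and Col1a2 stood at 16.2% of their fibroblast-like level in mural-like and at 1.99% in endothelial-like cells. The part of fibroblast RNA in these differences was not tested. With a size rule of 1.5 the calls of Tgfbr2, Ltbp1 and Ltbp4 were lost, and those of Ltbp1 and Ltbp4 also when cells with macrophage markers were left out. Tgfbr2 was not called either with hashtags assigned by tag counts or at Leiden resolution 2.0, nor was Ltbp1 with a pseudocount of 5 CPM, with each cell scaled or with hashtags assigned by tag counts.

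**Figure D3:**
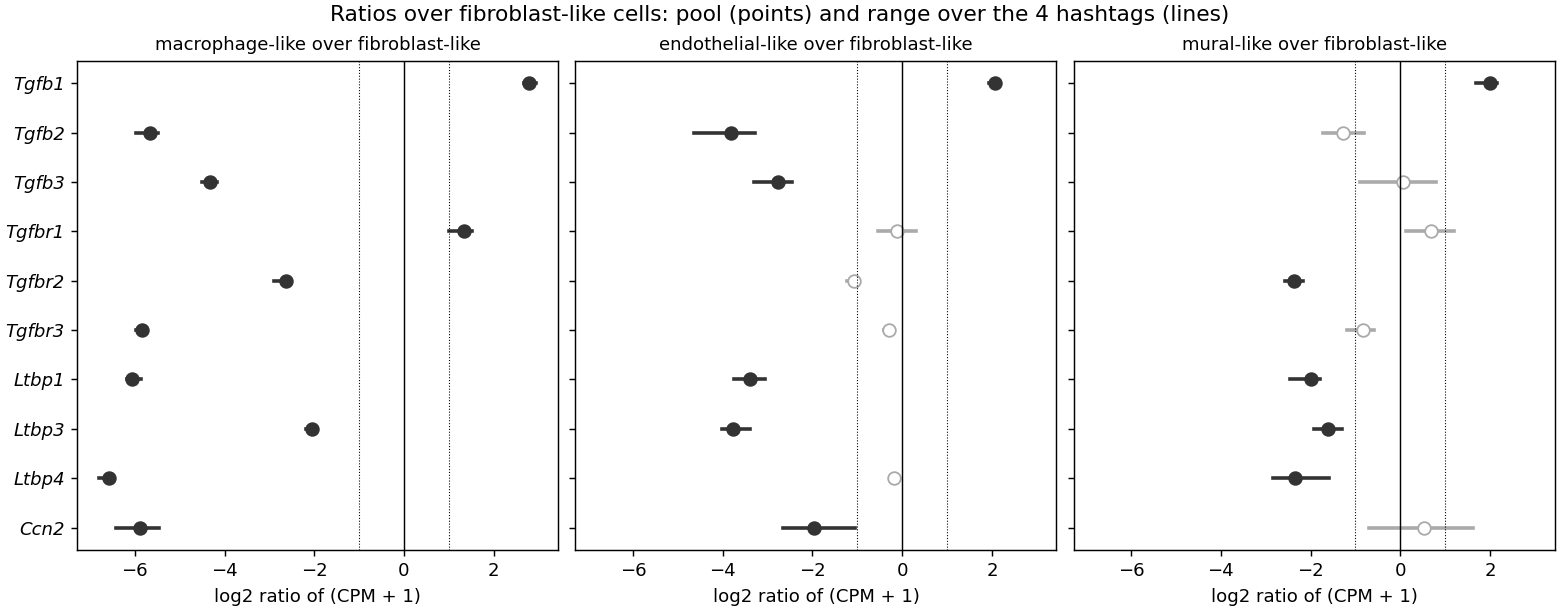
Log2 ratio of (CPM + 1) of each gene in macrophage-like, endothelial-like and mural-like cells over fibroblast-like cells, with points for the pool, lines for the range over the 4 hashtags, dark symbols for called genes and open grey symbols for the rest. Tgfb1 is called higher in all 3 panels (2.79, 2.07 and 2.004), while only Ltbp1 and Ltbp3 are called lower in all 3.

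The wider pathway was read from a list of 37 genes, of which 35 passed the level filter in each comparison with fibroblast-like cells. In macrophage-like over fibroblast-like cells 3 were higher and 17 lower, with a list median of -1.17. Nrros, which tethers latent TGF-beta on myeloid cells, was higher at 166 against 4.601 CPM. The repressor gene Tgif1 (82.2 against 14.7 CPM) and the matrix protein gene Tgfbi (204 against 54.0 CPM) were also higher. Fbn1, whose fibrillin anchors latent complexes, was lower at 1.22 against 2233 CPM, and low values of Fbn1, as of 66 other genes, had been set to 0 in the table. The plasminogen activator gene Plat (2.07 against 259 CPM), the matricellular gene Ccn1 (3.08 against 274 CPM) and Thbs1, whose thrombospondin activates latent TGF-beta (8.02 against 569.8 CPM), were lower as well. Junb, an early response gene, had the highest level of the genes not called, at 475 against 866 CPM.

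In endothelial-like over fibroblast-like cells 6 pathway genes were higher and 13 lower, with a list median of -0.28. Id1, a target of BMP and ALK1 signalling, was higher at 616 against 30.6 CPM, as were Nrros (56.7 against 4.601 CPM), the endothelial co-receptor gene Eng (812 against 89.4 CPM) and the decoy receptor gene Bambi (41.2 against 10.6 CPM). Adgre1, C1qb, Csf1r and Mrc1 stood in endothelial-like cells at 12.9% of their macrophage-like level. The part of macrophage RNA in the endothelial-like Nrros level was not tested. Fbn1 (24.6 against 2233 CPM), Ltbp2 (1.23 against 49.6 CPM), the integrin gene Itgb3 (3.03 against 30.3 CPM) and Smad3 (6.01 against 51.0 CPM) were lower, and Junb (657 against 866 CPM) was not called.

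In mural-like over fibroblast-like cells 3 pathway genes were higher and 7 lower, with a list median of -0.22. Nrros (36.4 against 4.601 CPM), Id1 (138 against 30.6 CPM) and the integrin gene Itgb1 (1175 against 497 CPM) were higher. Adgre1, C1qb, Csf1r and Mrc1 stood in mural-like cells at 25.1% of their macrophage-like level. The part of macrophage RNA in the mural-like Nrros level was not tested. Fbn1 (107 against 2233 CPM), Ltbp2 (1.80 against 49.6 CPM), Itgb3 (2.401 against 30.3 CPM) and the integrin gene Itgb8 (0.600 against 7.66 CPM) were lower, and Junb (791 against 866 CPM) was not called. Against endothelial-like cells, 7 of 32 pathway genes that passed the filter were higher in mural-like cells and 4 lower, with a list median of 0.05. Smad3 (39.0 against 6.01 CPM), Fbn1 (107 against 24.6 CPM) and the integrin genes Itgb5 (201 against 49.1 CPM) and Itgav (91.2 against 24.1 CPM) were higher. Bambi (7.60 against 41.2 CPM), Id1 (138 against 616 CPM), Eng (205 against 812 CPM) and the inhibitory Smad gene Smad6 (4.40 against 18.6 CPM) were lower. Itgb1 (1175 against 796 CPM) was the highest gene not called. The part of fibroblast RNA in these mural-like values was not tested.

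Within the myeloid cells few of the 10 genes were called. Only 6 of them passed the level filter, and Tgfb2, Tgfb3, Ltbp1 and Ccn2 lay under 5 CPM in each class. In monocyte-like over macrophage-like cells 0 of the 6 were called, against 4.82% of 11019 genes (3.86% higher and 0.962% lower), and the ratios ran from -0.63 for Ltbp3 to 0.87 for Tgfbr3. The median of the 6 was 0.13, against 0.04 for all genes. The macrophage markers Adgre1, C1qb, Csf1r and Mrc1 stood in monocyte-like cells at 84.8% of their macrophage-like level, so these classes are not sharply separated. Of 27 pathway genes Thbs1 (193 against 8.02 CPM) and the Smad anchor gene Zfyve9 (37.0 against 4.22 CPM) were higher in monocyte-like cells, Cd109, which encodes a TGF-beta co-receptor (3.06 against 11.9 CPM), was lower, and Junb (709.9 against 475 CPM) was not called. The list median was 0.16.

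In dendritic-cell-like over macrophage-like cells 2 of the 6 genes were lower and 0 higher, against 12.4% called of 11434 genes (5.22% lower and 7.16% higher). Ltbp3 was lower at -1.99 (12.3 against 51.7 CPM) and Tgfbr1 at -1.48 (26.7 against 76.2 CPM). Tgfbr2 (-0.83) and Tgfb1 (-0.75) were not called, and the medians were -0.79 for the 6 genes and 0.16 for all. The call of Tgfbr1 was lost with a size rule of 1.5, and Tgfb1 was called lower at Leiden resolution 2.0. Of 29 pathway genes 2 were higher and 5 lower, with a list median of 0.12. The feedback inhibitor genes Pmepa1 (35.5 against 5.09 CPM) and Skil (196 against 67.7 CPM) were higher. The integrin gene Itgb5 (33.2 against 172 CPM), the urokinase gene Plau (14.2 against 66.8 CPM) and Cd109 (1.93 against 11.9 CPM) were lower, and Junb (589.9 against 475 CPM) was not called.

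Among the states of the macrophage-like cells, Tgfbr2 was the gene called. Lipid-associated-like cells (1000 cells, with Gpnmb and Mmp12) had 52.7, 52.5, 53.5 and 59.4 CPM, against 192, 212, 292 and 216 CPM in resident-like cells (141 cells, with Lyve1, Folr2, Cd163 and Cbr2). No hashtag of the lipid-associated-like cells reached the lowest of the resident-like cells, and the ratio was -2.03 (-2.43 to -1.84). Of the lipid-associated marker list, Trem2, Lpl and Cd63 were met in no sub-cluster of this class, and Cd9, Spp1 and Fabp5 not in all. At Leiden resolution 2.0 sub-clusters led by Car2 and Dcstamp (464 cells) and by Pgm5 and Hspb7 (691 cells) were also named lipid-associated. Tgfbr2 was the 1 gene called of the 6 that passed the filter, against 8.17% of 10949 genes (3.02% higher and 5.15% lower), and the medians were -0.02 for the 6 genes and -0.20 for all genes. After thinning, 36.4% of 975 lipid-associated-like and 71.7% of 113 resident-like cells had a Tgfbr2 count, while the shares without thinning were 74.1% and 76.6% at median depths of 67336 and 17914 counts. Pdgfra, Col1a1 and Col1a2 summed to 44.7 CPM in lipid-associated-like and 112 CPM in resident-like cells, 0.464% and 1.16% of the fibroblast-like level, and their part in the Tgfbr2 difference was not tested. At Leiden resolution 0.5 the Tgfbr2 ratio was -1.14 and was not called. The resident-like sub-cluster at that resolution (179 cells) had Sparc, Serping1 and Col4a1 among its leading genes.

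Tgfbr1 ran the other way without being called, at 85.7, 63.8, 85.1 and 87.0 CPM in lipid-associated-like and 36.3, 19.1, 28.6 and 53.6 CPM in resident-like cells (ratio 1.15, 0.69 to 1.69). The ranges did not overlap, and Tgfbr1 was called higher without hashtag A0312, with hashtags assigned by tag counts and with each cell scaled before averaging. Ltbp3 (66.9 against 34.9 CPM) and Tgfb1 (211 against 167 CPM) were not called. Ltbp4 (ratio -1.19) and Tgfbr3 (ratio -0.38) were not called either. Of 27 pathway genes 2 were higher and 3 lower, with a list median of -0.45. The latent TGF-beta docking gene Lrrc32 (9.90 against 0.326 CPM, the lower value from 1 count) and Itgav (70.4 against 21.2 CPM) were higher in lipid-associated-like cells. Tgfbi (107 against 579 CPM), Smad3 (3.13 against 19.9 CPM) and Ccn1 (2.54 against 12.4 CPM) were lower, and Junb (373 against 736 CPM) was not called. Of the 10 genes that cell isolation can induce, 7 were lower in lipid-associated-like cells, with sums of 4672 against 12767 CPM, and their part in these differences was not tested.

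The other macrophage states all lay below the resident-like cells for Tgfbr2. It had 109 CPM in 3277 MHC-II-high-like cells (81.6 to 121 over hashtags), 77.0 CPM in cells led by Sox4 and Gm23935, and 75.6 CPM in cells led by Pgm5 and Hmga2. The dividing cells had 49.2 CPM in the DNA-synthesis-like and 44.2 CPM in the mitotic-like state, and the cells led by Dcstamp and Gm4610 had the lowest level, 36.4 CPM (34.0 to 38.0). The MHC-II-high-like class pooled 4 sub-clusters, with 145 CPM of Tgfbr2 in the one led by Chp2 and Ighm, 71.1 CPM in the one led by Ms4a6b and Fbxo32, 50.5 CPM in the one led by Plbd1 and Ear2 and 139 CPM in the one led by Mgl2 and F13a1. The sub-clusters led by Plbd1 and Ear2 and by Mgl2 and F13a1 had more monocyte markers than MHC-II markers among their 10 leading genes (Ccr2 with Fn1 and with F13a1), although MHC-II markers were met in both. Tgfb1 was more even over the states, from 167 CPM in resident-like to 238 CPM in MHC-II-high-like cells. Its resident-like level was 114 CPM in hashtag A0311 and 179 to 194 CPM in the others.

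**Figure D4:**
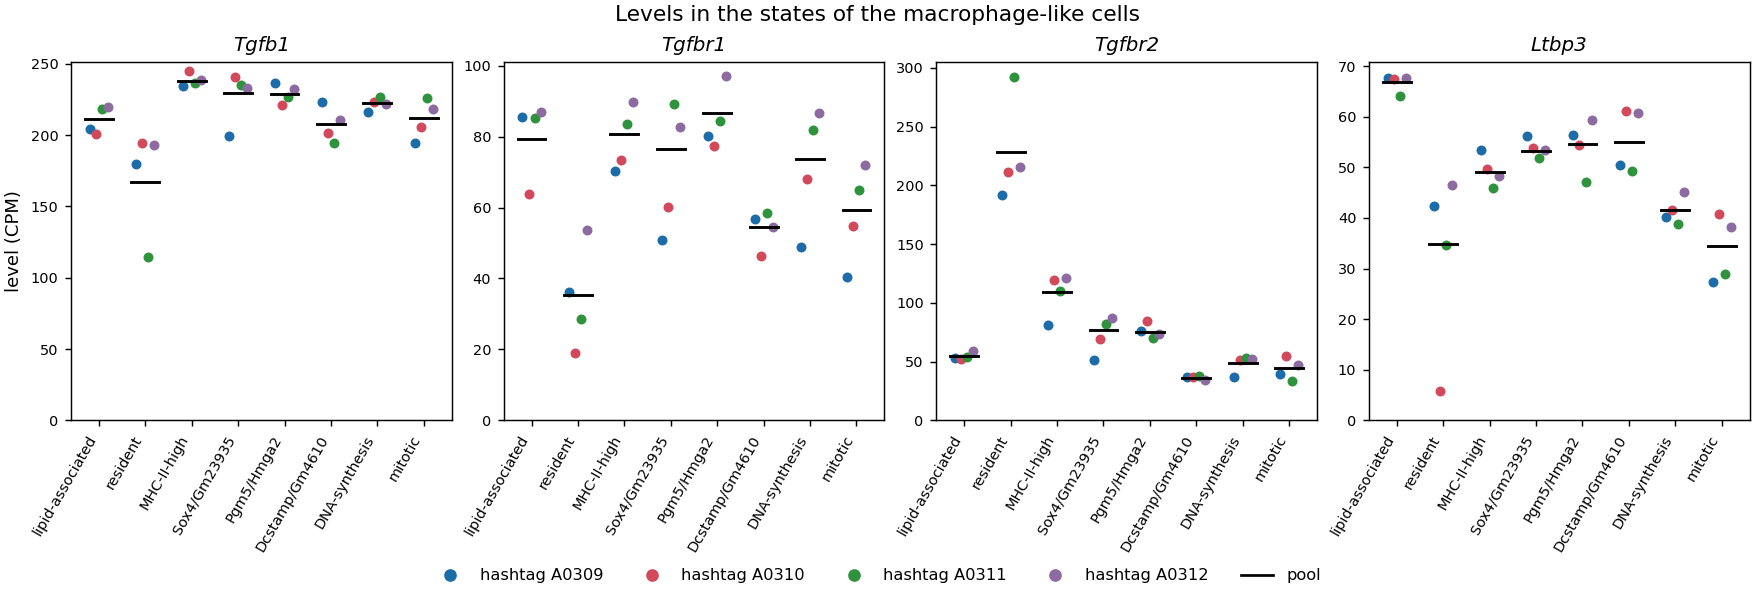
Levels of Tgfb1, Tgfbr1, Tgfbr2 and Ltbp3 (CPM, linear axis from 0, own scale per gene) in 8 states of the macrophage-like cells, with a point per hashtag and a black bar for the pool. Tgfbr2 stands at 228 CPM in resident-like cells and at 36.4 to 109 CPM in the other states.

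Among fibroblast states, Ltbp1 separated progenitors from preadipocytes. Dpp4-progenitor-like cells (827 cells, with Dpp4, Pi16, Cd55 and Sema3c) had 226, 254, 245 and 237 CPM, against 85.1, 63.9, 80.4 and 83.3 CPM in preadipocyte-like cells (639 cells, with Fabp4, Lpl and Cxcl14). The groups did not overlap in any hashtag, and the ratio was 1.63 (1.40 to 1.97). Ltbp1 was the 1 gene called of 10, against 5.34% of 11411 genes (2.73% higher and 2.61% lower), and the median of the 10 genes was 0.75, against 0.01 for all genes. Of the preadipocyte-like cells, 443 formed a sub-cluster whose 10 leading genes held 2 mural markers (Tagln and Notch3) and 1 preadipocyte marker (Tnc). Without it, against 196 cells, the ratio of Ltbp1 was 1.58, and Ltbp4 (1.52) and Ccn2 (2.71) were called higher as well. Ltbp1 was not called at Leiden resolution 0.5, where its ratio was 1.24, nor under a size rule of 1.5.

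A second set of genes lay near the limit of the rule. Ltbp4 had 859.6, 751, 763 and 784 CPM in Dpp4-progenitor-like and 378, 344, 352 and 406 CPM in preadipocyte-like cells, with a ratio of 1.11 in the pool and 0.95 in the lowest hashtag. Tgfbr2 had 693 against 334 CPM, with a ratio of 1.05 and 0.91 in the lowest hashtag. For both genes every hashtag of the progenitors lay above every hashtag of the preadipocytes, yet neither was called. Ccn2 (0.86), Tgfbr3 (0.78) and Tgfb2 (0.71) followed, while Tgfbr1 (-0.10), Ltbp3 (-0.17), Tgfb3 (-0.46) and Tgfb1 (-0.49) had ratios under 0, all not called. Ltbp4 was called as well without hashtag A0312, with hashtags assigned by tag counts and at Leiden resolution 2.0. Of 36 pathway genes Fbn1 (4585 against 1893 CPM) was higher, Fbn2 (1.42 against 13.8 CPM) and the elastic fibre gene Emilin1 (101 against 264 CPM) were lower, and Junb (769 against 592 CPM) was not called.

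The progenitors were not uniform. Their sub-cluster led by Adamts16 and Sema3c (323 cells) had 289 CPM of Ltbp1, 903 CPM of Tgfbr2 and 106 CPM of Ccn2. The sub-cluster led by Adamts16 and Tnfrsf11b (504 cells) had 211 CPM of Ltbp1, 572 CPM of Tgfbr2 and 205 CPM of Ccn2. For each of these genes the hashtag ranges of the sub-clusters lay apart, with Tgfbr2 from 889 to 917 CPM in the first and from 544 to 595 CPM in the second. The preadipocyte-like sub-clusters differed for Ccn2, with 24.9 CPM (16.3 to 40.8) in the sub-cluster led by Cd36 and Fgf10 and 117 CPM (68.2 to 193) in the one led by Tnc and Tagln, the one with mural markers among its leading genes. At Leiden resolution 2.0 a fibroblast sub-cluster of 155 cells led by Acta2 and Tnc, with Tagln and Notch3 among its leading genes, was mixed. It met 3 mural markers and was set aside there. Whether the sub-cluster led by Tnc and Tagln holds mural cells was not tested.

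In Inhba-Ereg-like over preadipocyte-like cells 0 of 10 genes were called, against 2.61% of 11340 genes (1.20% higher and 1.41% lower). Tgfb1 had 78.7, 58.4, 50.5 and 62.7 CPM in 107 Inhba-Ereg-like cells and 32.4, 44.7, 29.6 and 37.6 CPM in preadipocyte-like cells. The hashtag ranges did not overlap, but the ratio of 0.77 (0.38 to 1.25) did not meet the rule. Ccn2 was called higher, at 2.08, when the preadipocyte-like sub-cluster led by Tnc and Tagln was left out. Against all preadipocyte-like cells Ltbp1 stood at 0.80 and Ccn2 at 0.23, and the medians of the 10 genes and of all genes were 0.00 and -0.03. Of 36 pathway genes Thbs1 (2108 against 438 CPM) was higher and Fbn2 (1.74 against 13.8 CPM) lower, and Fbn1 (1340.4 against 1893 CPM) was the highest gene not called.

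The remaining fibroblast states each had a profile of their own. F3-Clec11a-like cells (98 cells, with F3, Clec11a and Gdf10) had 1567, 1514 and 1213 CPM of Ltbp4 in the 3 hashtags with at least 20 cells, above every such hashtag of the other fibroblast states. They also had 39.6 CPM of Tgfb2, the lowest pool level of the 7 states, and 67.9 CPM of Tgfb3, the highest. Agt-Hp-like cells (1072 cells) had 49.8 CPM of Ccn2 (40.5 to 72.9) and Dpp4-progenitor-like cells 168 CPM. The list of genes that cell isolation can induce summed to 21603 CPM in Agt-Hp-like and 12610.1 CPM in Dpp4-progenitor-like cells. Cells led by Fmo2 and Angptl1 varied most for Ccn2, at 85.4, 98.0, 253 and 129.6 CPM. Cells led by Spon1 and Cxcl14 had 678 CPM of Ltbp4 and 47.5 CPM of Ccn2 (41.4 to 51.9).

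**Figure D5:**
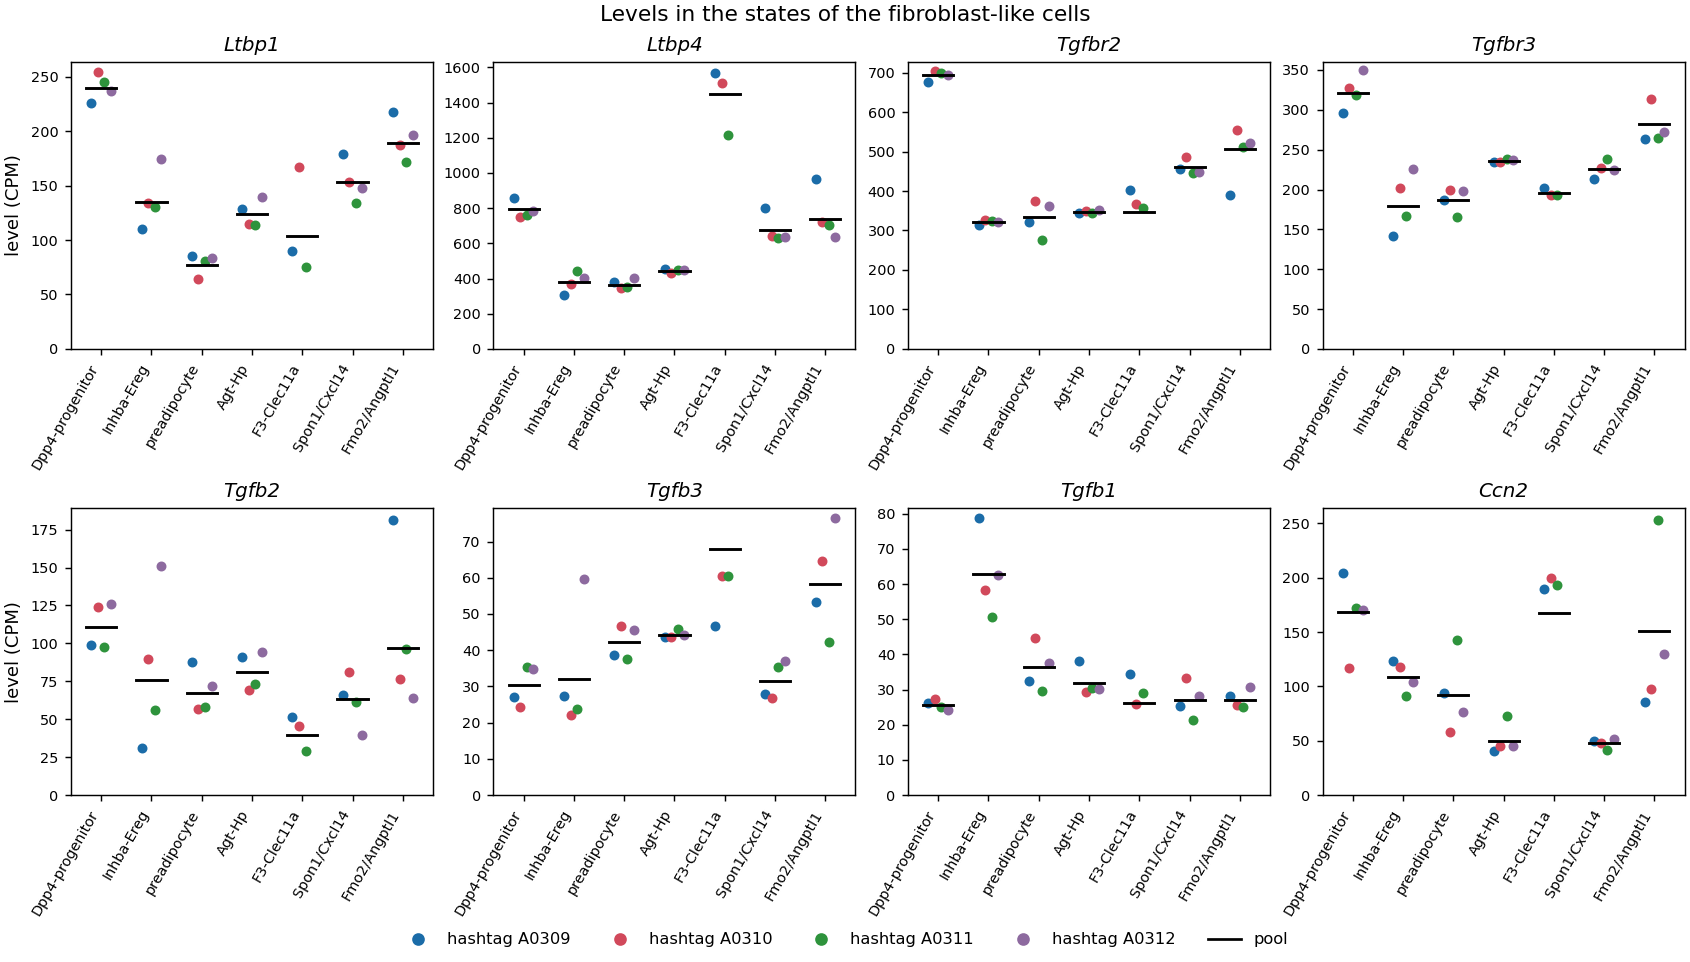
Levels of 8 genes (CPM, linear axis from 0, own scale per gene) in 7 states of the fibroblast-like cells, with a point for each hashtag with at least 20 cells and a black bar for the pool. Ltbp1 and Tgfbr2 are at their highest in Dpp4-progenitor-like cells (239 and 693 CPM), and Ltbp4 in F3-Clec11a-like cells (1450.2 CPM).

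The spread of the 10 genes over hashtags was set beside that of other genes. In macrophage-like cells the highest hashtag, as CPM + 1, was 1.04 times the lowest for Tgfb1, 1.33 times for Tgfbr1, 1.30 times for Tgfbr2 and 1.14 times for Ltbp3, while the median of 6219 genes at 20 CPM or more was 1.11. In fibroblast-like cells Ccn2 differed by 1.74 times between A0311 and A0310, against a median of 1.12 over 6541 genes, of which 0.183% differed by 2 times or more. The other 9 genes lay between 1.07 and 1.29 times. Mural-like cells, which were few, had a median of 1.66 times, and 28.4% of 7629 genes differed by 2 times or more there.

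The genes most like each of the 10 in level were sought over 28 sums, 1 per lineage and hashtag, among 11532 genes at 20 CPM or more in any sum. These sums share the library and differ in depth and cell number, so Pearson's r of log2(CPM + 1) is a description. For the ligands they were Lyz2 (0.98) and Abcg1 (0.97) with Tgfb1, Mrc2 (0.97) and Antxr1 (0.97) with Tgfb2, and Lama2 (0.95) and Ddr2 (0.95) with Tgfb3. For the receptors they were Atp6v0a1 (0.86) and Htra2 (0.85) with Tgfbr1, Enpp3 (0.91) and Prg4 (0.91) with Tgfbr2, and Serpinh1 (0.97) and Amotl2 (0.97) with Tgfbr3. For the latency genes they were Antxr1 (0.97) and Pcolce (0.97) with Ltbp1, Cd302 (0.94) and Selenbp1 (0.92) with Ltbp3, and Ppic (0.96) and Cyp2d22 (0.96) with Ltbp4. Rarres2 (0.98) and Sgce (0.97) were closest to Ccn2. Among the 10 genes themselves the extremes were Ltbp1 with Tgfb2 (0.94) and Ltbp1 with Tgfb1 (-0.88).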

How the data were processed

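The transcript and hashtag tables deposited by the authors hold whole-number counts per gene or tag and cell. Per the submitters' processing notes, GRCm38 was the build, and Bowtie2 2.4.2, cutadapt 3.4 and R 4.1.2 and 3.6.3 were among the tools, with no role stated. The sources used here do not say if counts are of reads or of molecules. Low values of 67 of the first-listed genes had been set to 0, none of them among the 10 genes. Cells were assigned by the hashtag in their deposited names and needed 200 genes and at most 25% mitochondrial counts. Cells were clustered in scanpy 1.11.5 (2000 variable genes, 30 components, 20 neighbours, Leiden resolution 1.0), with the 10 genes and the pathway list left out. A name needed 3 markers, each found in 25% of cells and higher there by 1 on the log2 scale. No doublet caller was run. Clusters with at least 75% of the markers of another compartment were called mixed and set aside. Counts were summed per class and hashtag and scaled to CPM. The rule of size was checked on simulated data. The members and lists were chosen with earlier results of these data known. In each comparison the pathway genes named are up to 4 called genes a direction with the largest ratios and the uncalled gene with the highest CPM; for each gene, 2 most similar genes are named. A gene that the rule would name is not reported here. The sub-clusters, the Ccn2 cells, Ttll5, and the lymphatic and mesothelial-like cells were chosen for naming after their values were seen. Alternatives are listed under the dependence on processing.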

Additional observations from a re-analysis of the deposited data

Results flagged for a closer look

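The 4 hashtag levels were checked for a value that stands apart, by the gap to its neighbour over the whole range (Dixon's 95% limit for 4 values), in 52 pairs of gene and lineage at 5 CPM or more. About 1 in 20 such pairs is marked by chance, and 6 were. The hashtags are not known to be replicates of a group. In mural-like cells hashtag A0309 stood apart for Ccn2 (344 CPM, next 116.6 CPM), Ltbp4 (210 CPM, next 93.8 CPM) and, on the low side, Ltbp1 (27.5 CPM, next 38.8 CPM). In monocyte-like cells hashtag A0310 stood apart for Tgfbr2 (27.8 CPM, next 84.0 CPM) and Tgfbr3 (11.6 CPM, next 6.04 CPM), from 37 cells. In fibroblast-like cells hashtag A0309 stood apart for Ltbp3 (207 CPM, next 218.7 CPM).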

How the results depend on the processing

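No paired analysis was possible because there is 1 pool and no replicate number. No called ratio of the 10 genes changed sign under any setting run. Of 864 recomputed ratios, 772 moved by less than the standard deviation of the same ratio over hashtags. Of 131 recomputed counts 116 stayed within 1.5 times. The share of all genes called was computed for the main setting only. Whether the changed counts below follow all genes was therefore not tested. With a size rule of 1.5 the count of called genes was 4 for mural-like over endothelial-like, 1 for dendritic-cell-like over macrophage-like cells, while the comparison of Dpp4-progenitor-like with preadipocyte-like cells had 0. At Leiden resolution 0.5 it was 3 for lipid-associated-like over resident-like cells (Ltbp1, Ltbp4 and Ccn2, without Tgfbr2), while the progenitors again had 0. At resolution 2.0 it was 4 for dendritic-cell-like over macrophage-like (Tgfb1 and Tgfb3 added), 3 for Dpp4-progenitor-like (Ltbp4 and Ccn2 added) and 1 for Inhba-Ereg-like over preadipocyte-like cells (Ccn2). For lipid-associated-like over resident-like cells it was 2 with each cell scaled and 2 with hashtags assigned by tag counts (Tgfbr1 added), and 1 to 2 with a hashtag left out. For the progenitors it was 2 with hashtags assigned by tag counts (Ltbp4 added), and 1 to 2 with a hashtag left out. At resolution 0.5 the resident-like sub-cluster (179 cells) had Sparc, Serping1 and Col4a1 among its leading genes. At resolution 1.0 a macrophage sub-cluster of 126 cells led by Sparc and Bgn met 6 endothelial markers and was set aside as mixed. The cause of the changes in these counts was not tested. The lineage with the highest level was the same for 8 to 10 of the 10 genes; without hashtag A0309, Tgfb3 and Ccn2 were highest in fibroblast-like cells. Resolution 0.5 gave no monocyte-like or dendritic-cell-like class and resolution 2.0 no monocyte-like class, so those comparisons have no value there. With the preadipocyte-like sub-cluster led by Tnc and Tagln left out, chosen after seeing the data, it was 3 for the progenitors (Ltbp4 and Ccn2 added) and 1 for Inhba-Ereg-like cells (Ccn2). Leaving out cells with macrophage markers was chosen after seeing the data; it ended the calls of Ccn2 in endothelial-like over fibroblast-like, Ltbp4 in mural-like over fibroblast-like, and Ltbp1 and Ltbp4 in mural-like over endothelial-like cells. Levels under 5 CPM, and classes with about 20 cells a hashtag, are limited by depth.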
